A study of Mus musculus with 8 samples.

Results

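The 10 genes described here encode lipoprotein lipase (Lpl) and the proteins that fold it, carry it, activate it or inhibit it: Gpihbp1, Lmf1, Lmf2, Angptl4, Apoc1, Apoc2, Sort1, Furin and Pcsk5. They were chosen by name for their role, by a rule that uses no measured value but was written with earlier results of these data known. The rule left out genes that were not measured, so all 10 are among the 18820 genes tested. Each was read by 1 probe set. White adipose tissue was profiled on 8 1-colour arrays, 1 per male mouse, in 2 groups of 4. Wildtype (WT) mice and Sel1l-/- mice had both been kept for 5 weeks on the high fat diet D12492 of Research Diets, and both were on a C57BL/6 background in which C57BL/6N and C57BL/6J were mixed. In the Sel1l-/- mice, floxed Sel1l alleles had been removed by a Cre that the adiponectin promoter drives in adipocytes, so the other cells of the tissue keep the gene. The fat depot, the age of the mice and whether WT mice carried floxed alleles are not stated in the labels.

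Lipoprotein lipase is made by adipocytes and muscle cells and splits the triglyceride of circulating lipoproteins, so that fatty acids can enter the tissue. The enzyme is folded in the endoplasmic reticulum (ER) with the help of Lmf1. It is handed from the adipocyte to Gpihbp1 on capillary endothelial cells, and works in the vessel lumen. Apoc2 activates it, and Angptl4 and Apoc1 hold it back. Sel1l encodes the adapter of the Hrd1 ligase complex, which sends misfolded ER proteins to degradation. The published study of these mice reported lipoprotein lipase protein held back in the ER of Sel1l-deficient cells; the arrays measure transcripts only, and no protein value is used here.

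Promoters of genes that encode ER proteins are shown first. Those of Lmf1 and Lmf2 are shown as members, and those of Calr and Canx as the 2 genes of the wider list that passed the test. Lmf1 and Lmf2 are 2 of the 10 genes. Calr and Canx encode calreticulin and calnexin, the lectin chaperones of ER glycoproteins such as lipoprotein lipase, and belong to the wider pathway list described further on. The sequences are the 250 bases before each RefSeq gene start in GRCm38.p6, written 5′ to 3′ on the gene's strand, with matches to the motifs searched in capitals. They lie at chr17:25578924-25579173 on the plus strand for Lmf1, and on the minus strand at chr15:89355660-89355909 for Lmf2, chr8:84846932-84847181 for Calr and chr11:50325674-50325923 for Canx.
Lmf1: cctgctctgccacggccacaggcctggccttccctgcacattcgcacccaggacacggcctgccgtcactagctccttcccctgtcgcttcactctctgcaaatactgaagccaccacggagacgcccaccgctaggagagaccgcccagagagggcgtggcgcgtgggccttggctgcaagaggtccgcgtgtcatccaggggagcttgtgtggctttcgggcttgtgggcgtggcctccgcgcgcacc
Lmf2: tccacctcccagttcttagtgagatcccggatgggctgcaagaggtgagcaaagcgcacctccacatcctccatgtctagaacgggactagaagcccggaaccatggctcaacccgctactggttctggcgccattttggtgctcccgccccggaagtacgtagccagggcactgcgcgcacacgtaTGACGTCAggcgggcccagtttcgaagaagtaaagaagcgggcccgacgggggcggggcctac
Calr: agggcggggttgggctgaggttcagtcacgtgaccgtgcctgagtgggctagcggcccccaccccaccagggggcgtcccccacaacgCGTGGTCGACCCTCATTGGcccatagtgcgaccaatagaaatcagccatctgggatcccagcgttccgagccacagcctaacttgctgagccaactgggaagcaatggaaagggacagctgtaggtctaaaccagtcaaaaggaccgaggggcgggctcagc
Canx: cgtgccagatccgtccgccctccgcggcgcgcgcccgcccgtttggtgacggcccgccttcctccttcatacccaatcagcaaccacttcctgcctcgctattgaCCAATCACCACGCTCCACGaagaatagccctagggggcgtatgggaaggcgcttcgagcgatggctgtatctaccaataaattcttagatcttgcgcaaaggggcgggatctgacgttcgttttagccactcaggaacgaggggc

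Both strands were searched for the ER stress element (CCAAT and CCACG with 9 bases between), its second form (ATTGG and CCACG with 1 base between), the cyclic AMP element (TGACGTCA), the C/EBP-ATF element (TTGCATCA) and the PPAR element (AGGTCA and AGGTCA with 1 base between). Calr held the ER stress element from 162 to 144 bases before its start, and Canx held it from 145 to 127 bases before. Of all 32851 promoter windows of this length in the table, 37 (0.113%) held that motif. Lmf1 held none of the 5 motifs in this window. Lmf2 held the cyclic AMP element from 63 to 56 bases before its start, a motif found in 1.55% of windows. The remaining shares were 0.0304% for the second form of the ER stress element, 0.791% for the C/EBP-ATF element and 0.0335% for the PPAR element. The table held promoters for 5 of the 10 genes, and those of Apoc2, Furin (2 entries) and Pcsk5 held none of these motifs. Calr and Canx were picked because they passed, and the motifs were chosen with earlier results known, so their matches are a description with no test. A match is a stretch of letters and not a shown binding site.

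Values are log2 expression after RMA, and differences are Sel1l-/- minus WT on that scale with the 95% interval of limma. The medians of the 4 WT arrays lay between 6.05 and 6.08 and those of the 4 Sel1l-/- arrays between 6.10 and 6.14, so centring the arrays lowers Sel1l-/- values by about 0.04 against WT. The transcript of Sel1l averaged 10.57 ± 0.07 over the WT mice and 9.78 ± 0.21 over the Sel1l-/- mice (SD, n = 4 each), a difference of -0.79 (limma adjusted p = 0.0109), in the direction of the labels. The labels give each mouse a code of a letter and a number. With this letter as a block, which compares the genotypes only by WT 4 against Sel1l-/- 1 and 2, the call was lost (difference -0.98). It was also lost in limma with the number as a block (-0.80, adjusted p = 0.0813) and without moderation of the variances (-0.79, adjusted p = 0.0540). Adipocyte markers were bright (mean of 10 measured markers 11.94 to 12.57 per array), while 7 muscle, 7 liver and 4 pancreas markers averaged 5.64 to 5.84, 4.83 to 5.06 and 4.06 to 4.19 per array. The array Sel1l-/- 4 stood apart within this gene set, with the highest or the lowest value of all 8 arrays on 7 of the 10 genes. Several results are therefore also given without it. That array also had the highest macrophage marker mean and the lowest adipocyte and endothelial marker means. The differences of these 3 lists further on use all 8 arrays and are not given without it. Within code letter F (WT 4 against Sel1l-/- 1 and 2), the list means differed by 0.07 for adipocyte, -0.19 for macrophage and -0.29 for endothelial markers. For adipocyte and macrophage markers this is the reverse of the direction over all arrays. None of the 10 fibroblast and progenitor, 9 lymphocyte, 6 mesothelial or 2 red blood cell markers measured passed the adjusted threshold of 0.05 in limma (3, 1, 2 and 1 had an unadjusted p under 0.05), and all 6 mesothelial markers had a negative difference (median -0.37). Within code letter F the mesothelial list mean differed by 0.10, again the reverse of the direction over all arrays.

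In limma, none of the 10 genes passed an adjusted p of 0.05, the threshold that 1.72% of all genes passed. At an unadjusted p under 0.05, 4 of the 10 differed, Apoc2 higher and Gpihbp1, Sort1 and Apoc1 lower, beside 15.0% of all genes. The groups did not overlap for Gpihbp1 and Sort1, 2 of the 10, beside 10.3% of all genes. The median difference of the 10 genes was 0.02, and that of all genes was -0.00370. Over the 8 arrays the SD was 0.03 to 0.14 for Lpl, Lmf1, Lmf2, Furin and Pcsk5 and 0.26 to 0.45 for the other 5 genes, beside a median of 0.14 over all genes.

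**Figure D1:**
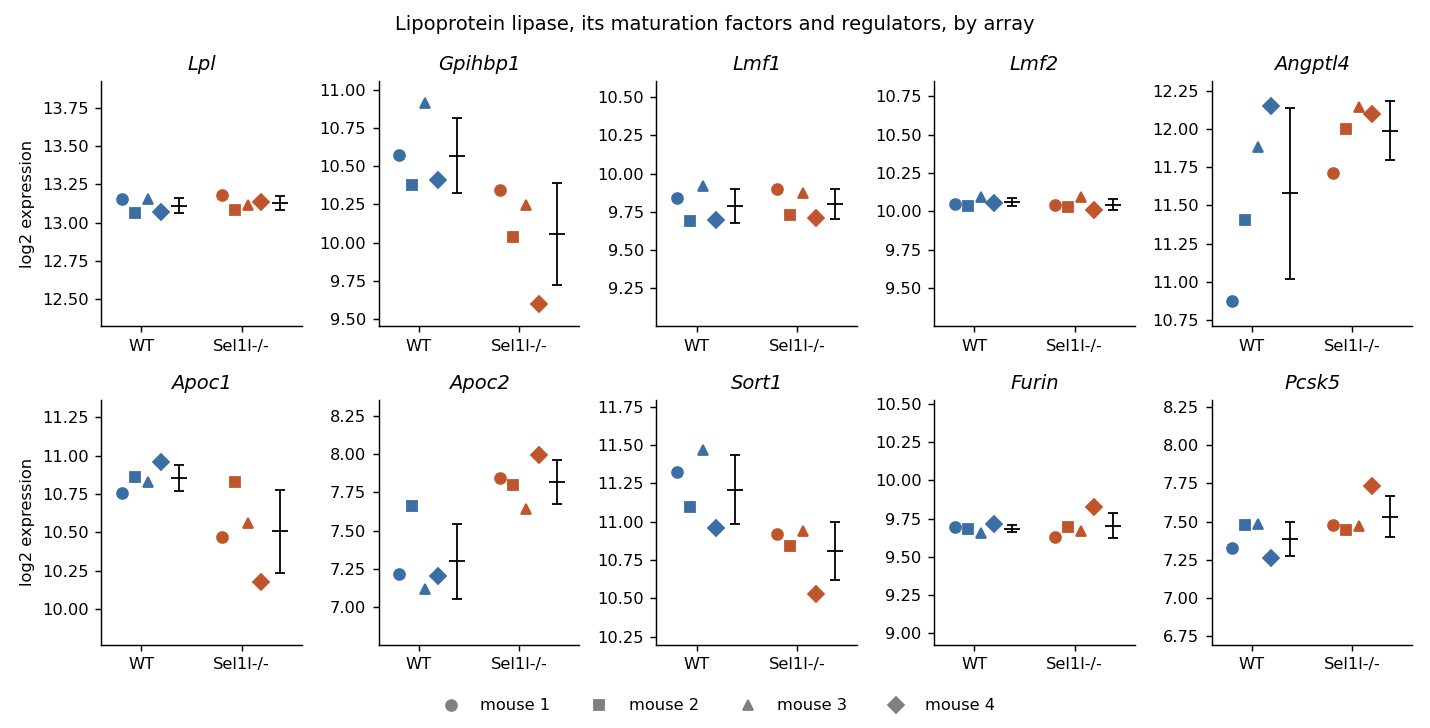
Log2 expression of each of the 10 genes (y axis, each panel spanning 1.6 log2 units) in 4 WT (blue) and 4 Sel1l-/- (orange) arrays, with the marker shape giving the mouse number and the black bar the mean ± SD. Lpl, Lmf1 and Lmf2 lie level in both groups, and the groups do not overlap for Gpihbp1 and Sort1.

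The transcript of the enzyme itself was level. Lpl read 13.15, 13.07, 13.15 and 13.07 in the WT arrays and 13.18, 13.08, 13.12 and 13.13 in the Sel1l-/- arrays. All 8 values lay within 0.12 of each other, and the groups overlapped. The difference was 0.02 (standard error 0.05, 95% interval -0.10 to 0.14, adjusted p = 0.912), so the interval spans from a 0.930-fold to a 1.10-fold level. Centring the arrays on their medians turned the difference to -0.02. These values lie near the top of the scale, whose highest value was 13.88, where RMA values may be compressed, which was not tested. The mean of the 10 measured adipocyte markers was 0.19 lower in Sel1l-/- mice, with a negative difference in 10 of 10 markers and none past the threshold of limma (1 at an unadjusted p under 0.05). Set against that mean on each array, Lpl was 0.21 higher in Sel1l-/- mice (means of 0.68 ± 0.09 for WT and 0.89 ± 0.20 for Sel1l-/-, SD over 4 arrays). An exact permutation test, two-sided, gave p = 0.0857 and 0.171 adjusted over the 4 such comparisons, where 0.0286 is the smallest p that 4 against 4 arrays allow. Without Sel1l-/- 4 this relative difference was 0.11, and within code letter F, the letter that holds both genotypes (WT 4 against Sel1l-/- 1 and 2), it was -0.01. Between mice of the same number it was positive in 4 of 4 pairs (0.10 to 0.38), which the permutation test does not use. This pairing was taken from these data. Of the WT arrays only WT 4 (0.80) lay above any Sel1l-/- array, so the count of pairs adds little.

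Lmf1 and Lmf2 were also close to level between the genotypes. Lmf1, the ER membrane protein without which lipoprotein lipase does not fold into an active enzyme, read 9.84, 9.69, 9.92 and 9.69 in WT and 9.90, 9.73, 9.87 and 9.71 in Sel1l-/- arrays. In both genotypes mice 1 and 3 were high and mice 2 and 4 low, and the groups overlapped almost entirely. The difference was 0.02 (95% interval -0.16 to 0.19, adjusted p = 0.946) and -0.02 with the arrays centred. Between mice of the same number the differences were 0.06, 0.04, -0.04 and 0.01, against a spread of 0.11 (SD, n = 4) among the WT mice. Lmf2, a paralog of Lmf1, was the least variable of the 10 genes, with values from 10.03 to 10.09 over WT and from 10.01 to 10.09 over Sel1l-/- arrays. Its difference was -0.02 (95% interval -0.13 to 0.10, adjusted p = 0.912).

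**Figure D2:**
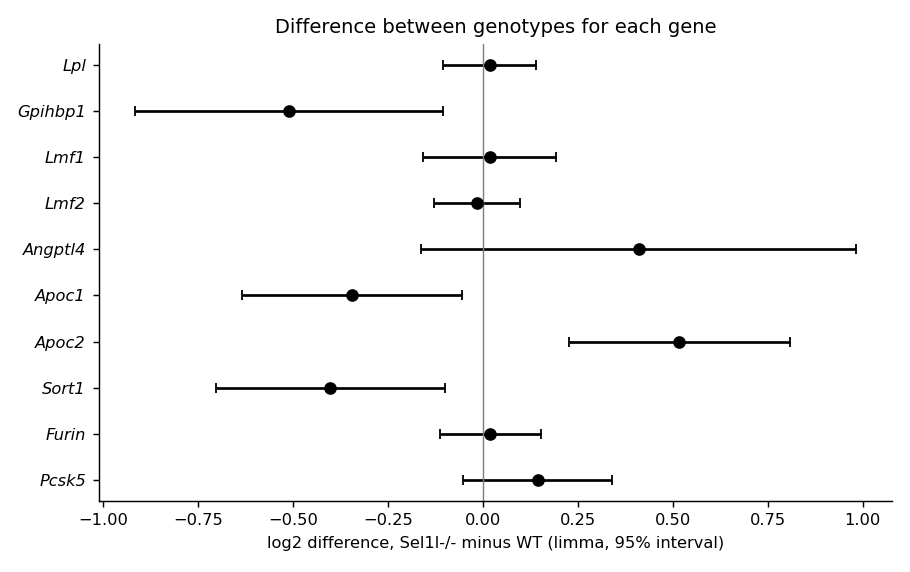
Difference in log2 expression between Sel1l-/- and WT mice (x axis) for each gene, with the 95% interval of limma as a bar (4 arrays per group). The intervals of Lpl, Lmf1, Lmf2 and Furin lie within 0.20 of 0, while those of Gpihbp1, Apoc1, Apoc2 and Sort1 leave out 0 before adjustment over all genes.

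Gpihbp1, the endothelial protein that binds lipoprotein lipase and moves it to the capillary lumen, had the most negative difference. It read 10.57, 10.38, 10.91 and 10.41 in WT and 10.35, 10.04, 10.25 and 9.60 in Sel1l-/- arrays. Every Sel1l-/- array lay below every WT array, with 0.03 between the nearest 2, and WT 3 was the highest and Sel1l-/- 4 the lowest. The difference was -0.51 (standard error 0.18, 95% interval -0.92 to -0.10), a 1.43-fold lower level. This difference did not pass over all genes (limma adjusted p = 0.223, 0.0616 with the replicate number as a block and 0.425 with the code number). Without Sel1l-/- 4 it was -0.36. With the code letter as a block, which compares the genotypes only by WT 4 against Sel1l-/- 1 and 2, it was -0.22. Within the code numbers 5, 7 and 9 it was -0.24, -0.41 and -0.88.

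The endothelial marker list moved with Gpihbp1. All 14 measured endothelial markers had a negative difference, Pecam1 and Eng fell past the threshold, 2 of 14 beside 0.685% of all genes, and none rose. The median difference of the list was -0.38, beside -0.00370 over all genes. Its mean ranged from 10.14 to 10.40 over WT arrays and from 9.617 to 9.997 over Sel1l-/- arrays, so the groups did not overlap. In whole tissue, fewer endothelial cells and less of these transcripts per cell cannot be told apart. Set against the endothelial marker mean on each array, Gpihbp1 averaged 0.31 ± 0.14 over WT and 0.19 ± 0.16 over Sel1l-/- arrays (SD, n = 4 each), a difference of -0.11 (exact permutation test, two-sided, p = 0.400, also 0.400 adjusted over the 4 comparisons). It was -0.04 without Sel1l-/- 4 and also -0.04 without WT 3, and within code letter F it turned to 0.08. It was negative in 3 of 4 same-numbered pairs. On this relative scale the groups overlapped, and Gpihbp1 and the marker mean differed between genotypes by -0.51 and -0.40.

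**Figure D3:**
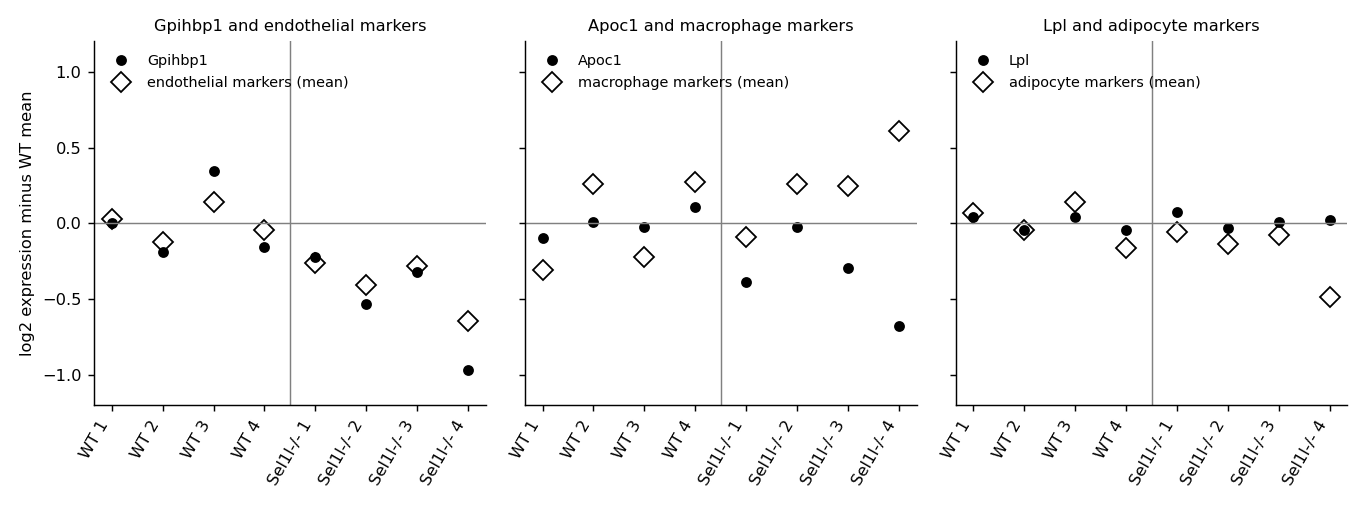
Log2 expression minus the WT mean (y axis) of 3 genes (filled circles) and of the mean of a marker list (open diamonds) in each of the 8 arrays, WT to the left of the vertical line. Gpihbp1 and the endothelial markers lie low together in the 4 Sel1l-/- arrays, Apoc1 is lowest in Sel1l-/- 4 where the macrophage marker mean is highest, and Lpl stays level where the adipocyte marker mean is lowest.

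Angptl4, the secreted protein that inactivates lipoprotein lipase in fasting and under fatty acid load, had the widest spread among WT mice of the 10 genes. It read 10.87, 11.41, 11.88 and 12.15 in WT and 11.71, 11.998, 12.14 and 12.10 in Sel1l-/- arrays. The WT arrays spanned 1.28, from below the lowest to above the highest Sel1l-/- array, and the Sel1l-/- arrays spanned 0.43. The difference was 0.41 (95% interval -0.16 to 0.98, adjusted p = 0.512), and it was 0.18 without WT 1. With the code letter as a block it was -0.29, which is also the value within the mice of letter F. The only WT mouse of that letter is WT 4, the highest of all 8 arrays for Angptl4. The labels do not say what this letter stands for.

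Neither of the apolipoproteins that tune the enzyme passed the threshold of limma, and the groups overlapped for both. Apoc2, its obligatory activator, read 7.22, 7.66, 7.12 and 7.20 in WT and 7.84, 7.80, 7.64 and 7.99 in Sel1l-/- arrays. WT 2 alone reached into the Sel1l-/- range, by 0.02. The difference was 0.52 (standard error 0.13, 95% interval 0.23 to 0.81), a 1.43-fold higher level with an adjusted p of 0.0982 (limma), and 0.0367 without WT 2. Leaving out any of the other 7 arrays gave adjusted p from 0.134 to 0.221, and the blocks gave 0.476 with the code letter and 0.158 with the code number. Apoc2 was higher in 4 of 4 same-numbered pairs, by 0.14 to 0.79. As only WT 2 lay above any Sel1l-/- array, this count adds little, and the pairing was taken from these data. Apoc1, which can inhibit lipoprotein lipase, read 10.76, 10.86, 10.83 and 10.96 in WT and 10.47, 10.83, 10.56 and 10.17 in Sel1l-/- arrays. Sel1l-/- 2 lay within the WT range and the other 3 below it. The difference was -0.35 (95% interval -0.63 to -0.06, adjusted p = 0.252), and -0.23 without Sel1l-/- 4.

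Macrophages also make both apolipoproteins, so the 14 macrophage markers were read beside them. Of these, 13 had a positive and 1 a negative difference (12 and 2 with the arrays centred), none passed the threshold of limma (at an unadjusted p under 0.05 there was 1, the marker with the negative difference), and the list mean ranged from 9.90 to 10.48 over WT and from 10.12 to 10.82 over Sel1l-/- arrays. Set against that mean on each array, Apoc1 averaged 0.64 ± 0.24 over WT and 0.04 ± 0.47 over Sel1l-/- arrays (SD, n = 4 each). This relative difference of -0.60 had p = 0.0286 in the exact permutation test, two-sided, the smallest value 4 against 4 arrays allow, and 0.114 adjusted over the 4 comparisons. Every Sel1l-/- array lay below every WT array on this scale, and the difference was -0.37 without Sel1l-/- 4 and -0.13 within code letter F. As the groups did not overlap on this scale, it was necessarily negative in 4 of 4 same-numbered pairs (-1.13 to -0.03). The relative difference of Apoc2 was 0.26 (exact permutation p = 0.257, 0.343 adjusted), and the groups overlapped. It was 0.14 without Sel1l-/- 1 and without WT 4, 0.17 against the median of the markers and 0.80 within code letter F. It was positive in 4 of 4 same-numbered pairs (0.05 to 0.45), a pairing taken from these data.

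Apoc1 and Apoc2 lie in 1 gene cluster on chromosome 7, in the order Clptm1, Apoc2, Apoc4, Apoc1, Apoe and Tomm40 in RefSeq. None of these genes passed the threshold of limma, and their differences did not share a direction. Apoc4, a minor apolipoprotein between the 2, read 5.76, 6.21, 6.21 and 6.71 in WT and 6.94, 7.72, 7.22 and 7.98 in Sel1l-/- arrays. The groups did not overlap, as for 10.3% of all genes, with 0.23 between the nearest arrays. Each Sel1l-/- mouse was therefore also higher than the WT mouse of its number, by 1.01 to 1.51. The difference of 1.24 (standard error 0.26), a 2.36-fold higher level, had an adjusted p of 0.0588 (limma). It was 0.00569 with the replicate number as a block, a fit that called 3.85% of all genes. Of 19 alternatives, 3 passed: the replicate block, array weights (limma adjusted p = 0.0242) and leaving out WT 4 (0.0420). Array weights called 566 of all genes, beside 324 in the main fit. The other 16 did not pass, among them the code number as a block (0.213) and no moderation (0.160). Leaving out any other single array gave 0.0591 to 0.166, and the difference lay between 1.07 and 1.41 with 1 array left out. With the code letter as a block, which compares the genotypes only by WT 4 against Sel1l-/- 1 and 2, it was 0.62. RefSeq also holds the model Gm44805, which runs over both Apoc4 and Apoc2, so the signals of the 2 genes may not be fully separate. Apoe, the major apolipoprotein of macrophages and liver, had a difference of -0.21 (adjusted p = 0.393), and the groups overlapped. Within code letter F the Apoe difference was 0.04. The flanking genes Clptm1 and Tomm40 had differences of 0.03 (adjusted p = 0.843) and 0.24 (adjusted p = 0.294).

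**Figure D4:**
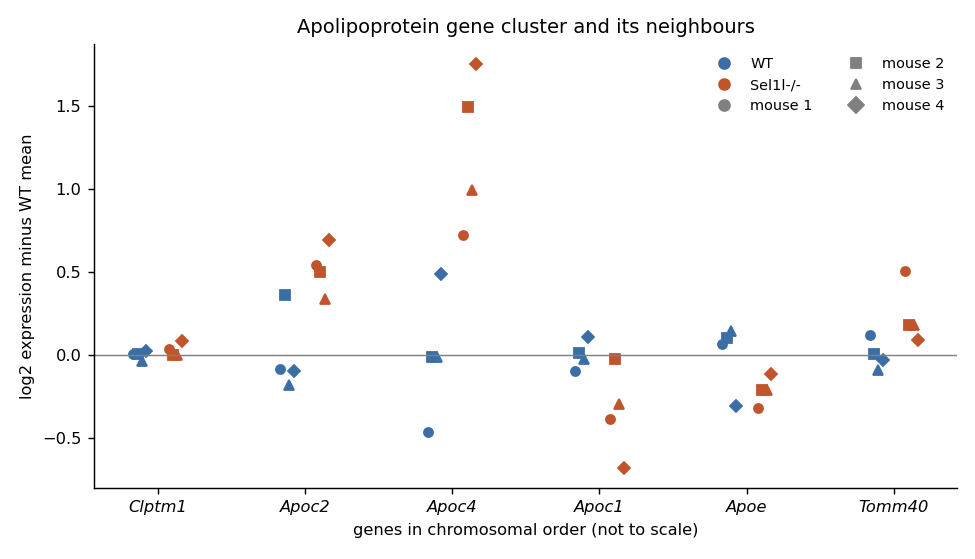
Log2 expression minus the WT mean (y axis) of the genes of the apolipoprotein cluster in chromosomal order (x axis, not to scale), for 4 WT (blue) and 4 Sel1l-/- (orange) arrays. In all 4 Sel1l-/- arrays Apoc2 and Apoc4 lie above 0 and Apoc1 and Apoe below 0. The groups do not overlap for Apoc4 and overlap for the other genes.

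Sort1, the sorting receptor sortilin, which binds lipoprotein lipase and other ligands between the Golgi and endosomes, read 11.32, 11.09, 11.47 and 10.96 in WT and 10.92, 10.84, 10.94 and 10.53 in Sel1l-/- arrays. Every Sel1l-/- array lay below every WT array, with 0.02 between the nearest 2. The difference was -0.40 (standard error 0.13, 95% interval -0.70 to -0.10), a 1.32-fold lower level that did not pass over all genes (limma adjusted p = 0.197). As the groups did not overlap, Sort1 was necessarily lower in 4 of 4 same-numbered pairs, by -0.41, -0.25, -0.52 and -0.43. It passed with the replicate number as a block (limma adjusted p = 0.0339), a fit that called 3.85% of all genes. That pairing was taken from these data. With the code letter as a block, the difference was -0.08 (adjusted p = 0.939), the value also found within letter F. Without Sel1l-/- 4 it was -0.31.

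Neither of the proprotein convertases, which can cut lipoprotein lipase, passed the threshold of limma, and only Furin was close to level. Furin read between 9.65 and 9.71 in WT and between 9.63 and 9.82 in Sel1l-/- arrays, and its WT range lay within that of Sel1l-/- mice. Its difference was 0.02 (95% interval -0.11 to 0.15, adjusted p = 0.916) and turned to -0.02 with the arrays centred, to -0.02 without Sel1l-/- 4 and to -0.05 with the letter as a block. Pcsk5 read 7.33, 7.48, 7.49 and 7.26 in WT and 7.48, 7.44, 7.47 and 7.73 in Sel1l-/- arrays. Only Sel1l-/- 4 lay outside the WT range. The difference of Pcsk5 was 0.14 (95% interval -0.05 to 0.34, adjusted p = 0.498), and 0.08 without that array.

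**Figure D5:**
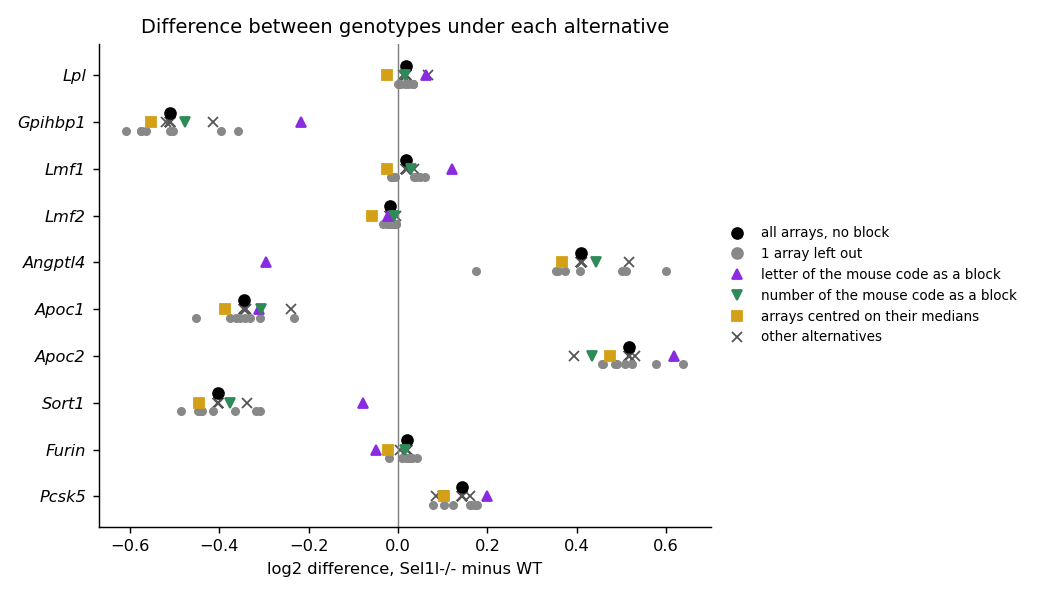
Difference in log2 expression between Sel1l-/- and WT mice (x axis) for each gene with all arrays and no block (black), with 1 array left out (grey), blocked by code letter or code number, with arrays centred on their medians and under the other alternatives. The letter block, which compares the genotypes only by WT 4 against Sel1l-/- 1 and 2, gave -0.22 for Gpihbp1 (-0.51 with all arrays). It gave -0.08 for Sort1 (-0.40 with all arrays) and -0.29 for Angptl4 (0.41 with all arrays).

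Of 28 other genes of lipoprotein lipase handling, 25 were measured and the others were not analysed here. Of the 25, 2 rose, none fell, and 23 did not pass, beside 1.04% of all genes that rose and 0.685% that fell. The list's median difference was -0.03. Both that rose encode ER chaperones. Lrpap1, the ER chaperone of lipoprotein receptors, is in the same list and had a negative difference of -0.29. It did not pass (limma unadjusted p = 0.0442, adjusted p = 0.319), and the groups overlapped. Canx read 12.12, 12.08, 12.01 and 12.06 in WT and 12.39, 12.35, 12.33 and 12.33 in Sel1l-/- arrays, with 0.22 between the groups, and rose 1.22-fold (difference 0.29, standard error 0.05, limma adjusted p = 0.0337). Calr read 11.87, 11.92, 11.85 and 12.01 in WT and 12.27, 12.26, 12.23 and 12.55 in Sel1l-/- arrays, and rose 1.33-fold (difference 0.42, standard error 0.08, limma adjusted p = 0.0494). Leaving out any 1 array lost the call of Canx (adjusted p from 0.0532 to 0.113), and each such fit but that without Sel1l-/- 4 lost the call of Calr (up to 0.138). Of 20 alternatives in all, 12 lost the call of Canx and 14 that of Calr, while the differences lay between 0.24 and 0.32 for Canx and between 0.25 and 0.45 for Calr. Hspg2, the basement membrane heparan sulfate proteoglycan perlecan, had a difference of -0.22 (adjusted p = 0.168). Angptl8, a secreted protein that acts on lipoprotein lipase activity, had one of -0.22 with an interval from -1.85 to 1.40.

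Of the 10 genes, 3 had an SD over the 8 arrays of at least 0.3, and for these the genes with the most similar pattern were looked up among all genes tested. Pearson's r over 8 arrays is given as a description, since the arrays share 2 groups and the genes were picked as the closest of all tested. For Gpihbp1 they were Tjp1 (r = 0.992), the endothelial marker Robo4 (0.989) and Tm4sf1 (0.988). For Apoc2 they were Dab2 (r = 0.982), Slc25a24 (0.973) and Carmil1 (0.953), and for Angptl4 they were Tspan15 (r = 0.971), Plg (0.956) and A530032D15Rik (0.948). None of these 9 genes passed the threshold between genotypes.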

How the data were processed

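Biotin-labelled whole-transcript cDNA from 8 mice was hybridised to 1-colour arrays, per the labels' protocols. The deposited values were made with RMA, per the submitters' processing notes, a method of background correction, quantile normalization and probe summary. Its version is not given in the sources used here. The scale of the deposited values was read as log2 from their range of 1.72 to 13.88, and no probe set was left out as dim. Quantile normalization would hide a shift shared by most transcripts. With 4 arrays per group, their number limits the precision.

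Of 35556 probe sets, 21218 carried 1 gene symbol in the platform annotation, 1881 carried several and 12457 were unnamed here. Each gene was read from its single-gene probe set with the highest mean, which gave 18820 genes. The main comparison used lmFit and eBayes of limma 3.58.1 (R 4.3.3) and two-sided p-values adjusted over all genes by Benjamini-Hochberg. The script was tested on simulated data. Figures were drawn with matplotlib 3.10.9 in Python 3.11.15. Member minus marker mean was tested with exact permutation tests. The named genes were the 10 genes, Sel1l, the 4 pathway genes with the smallest p, and the 3 closest patterns of each gene with an SD of at least 0.3. Clptm1, Tomm40, Apoe, Angptl8 and Lrpap1 were added after their values were seen, by position or role. The members, lists and motifs were chosen with earlier results of these data known.

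Mice are numbered 1 to 4 in both groups. Over all genes, deviations from the group mean correlated at 0.518, 0.107, 0.363 and 0.524 between mice of the same number and at -0.489 to 0.328 between mice of different numbers, of which WT 2 with Sel1l-/- 4 (0.327) and WT 3 with Sel1l-/- 1 (0.328) lay above the lowest same-number value. Since each same-number value was over 0.1, the numbers were treated as pairs in an alternative fit with the replicate number as a block; the pairing comes from the data, and no label says what the numbers share. Letter and number of the mouse code were also tried as blocks. The letter E holds WT mice only, G Sel1l-/- mice only, and F both. The letter block therefore compares the genotypes only within F, by WT 4 against Sel1l-/- 1 and 2. Other alternatives were centring, quantile normalization, filters on dim genes, other probe set choices, other variance models, array weights and leaving out each array.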

Additional observations from a re-analysis of the deposited data

Results flagged for a closer look

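In groups of 4 arrays, an array was noted when its gap to the nearest other array took up more of the group's range than Dixon's 95% critical value, which chance gives in about 1 group in 20. Of 38 groups examined, 3 were noted, all for the array Sel1l-/- 4. It was the highest Sel1l-/- array for Pcsk5 at 7.73 (log2 expression), for Calr at 12.55, and for Lpl minus the adipocyte marker mean at 1.19 (log2 difference).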

How the results depend on the processing

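Over 20 alternatives for each of the 10 genes, 187 of 200 fits kept the direction and the side of the threshold, 2 newly passed it and 11, in 4 genes, turned the sign of a difference that did not pass. The count of the 10 genes past the threshold was 0, and 1 with the replicate number as a block (Sort1) and 0 to 1 when 1 array was left out (Apoc2 without WT 2). The block with the replicate number changed no other call among the 10 genes. The Lpl difference was -0.0235 with centred arrays and -5.22e-06 to 0.0347 with 1 array left out. Lmf1 was -0.0246 with centred arrays and -0.0149 to 0.0610 with 1 array left out. Angptl4 was -0.29 with the letter as a block. Furin was -0.0497 with the letter, -0.0224 with centred arrays and -0.0202 to 0.0435 with 1 array left out. Over all genes 324 were called, 725 with the replicate block, 20 with the letter and 11 with the number of the mouse code, 566 with array weights, 124 without moderation and 100 to 336 with 1 array left out, where fewer arrays are tested. Of the 25 other pathway genes 2 were called, 3 with the replicate block or array weights, 0 with the letter, the number, centred arrays or every probe set tested, 1 with quantile normalization, with the mean of all probe sets or without moderation, and 0 to 1 with 1 array left out. Apoc4 has no value under the stricter filter on dim genes, which leaves it out. The pathway alternatives were chosen after seeing the data. The 4 differences from marker means kept their sign over 10 alternatives each; within code letter F, Gpihbp1 turned to 0.08 and Lpl to -0.01. Since 0.0286 is the smallest p, they could hardly pass after adjustment, so staying short of it shows no stability. Apart from what is stated here, the cause of each change was not tested.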
